A study of Macaca mulatta with 16 samples.

Results

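The lymphocyte genes of the fetal rhesus macaque lung were described as 3 sets: 20 T cell genes, 8 genes of natural killer (NK) and cytotoxic cells, and 7 B cell genes. They were chosen by symbol as markers of these cells, and 35 of 36 symbols matched a row of the counts table through its rhesus Ensembl ID. CD27 was the symbol without a row. All 35 genes passed the filter on low counts, among 19199 genes tested of 22515 in the table.

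T cells recognise antigen through a receptor that signals by way of the CD3 chains, and they leave the thymus as naive cells that enter tissues in larger numbers after activation. NK cells and cytotoxic T cells share granules of perforin and granzymes, so most genes of the NK and cytotoxic set do not tell these cell types apart. B cells signal through an antigen receptor that carries the CD79 chains. In the fetus T and B cells are largely naive. The lung before birth is known to hold few lymphocytes beside its epithelium, vessels and mesenchyme.

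Lungs of 16 fetuses in 5 groups were sequenced, with 1 library per fetus, and samples are named here by the number of the animal. The preterm controls (092, 101, 113 and 209) received no treatment and were delivered at 131 to 135 days of gestation. The term controls (200 and 201), also untreated, were delivered at 156 and 157 days. Fetuses of the LPS 16h group (026, 029, 035 and 038) were exposed to 1 mg of intraamniotic LPS, a bacterial cell wall product that triggers inflammation, and were delivered 16 hours later, at 130 or 131 days. The LPS 5d group (239, 240 and 242) had the same dose of LPS and was delivered after 5 days, at 131 to 134 days. In the LPS + Beta-Ac group (248, 249 and 255) the dam was also given 0.125 mg/kg of betamethasone-acetate, a corticosteroid used to mature the fetal lung, by the intramuscular route, and delivery followed after 5 days at 131 or 132 days. The labels give no sex and no batch. Beta-Ac alone was not analysed here, so the combined group can be set against LPS alone but the steroid cannot be read by itself. Animal numbers follow the groups in part. LPS 16h animals and preterm controls 092, 101 and 113 have numbers of 113 or below, and all others 200 or above. LPS 16h against LPS 5d follows this split in full. LPS 5d, LPS + Beta-Ac and term against preterm controls follow it in all but animal 209. The part of the split in the results was not tested.

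The libraries held 20169363 to 48052891 counts on genes, and the LPS 16h libraries were the deepest, with 30596371 counts or more. Levels are given in CPM, counts put on a common library size with TMM scaling, and changes as log2 fold changes with their standard errors from limma. A gene is called differentially expressed, and is said to rise or fall, at a Benjamini-Hochberg adjusted p below 0.05 over all 19199 genes with a fold change of at least 2. The tissue label matched the data: 10 markers of lung epithelium, vessels and mesenchyme summed to between 10468 and 21563 CPM in every library. Markers of myeloid cells moved with the groups. The 20 myeloid markers summed to 196 to 340 CPM in preterm controls, 441 to 627 CPM in term controls, 2629 to 3284 CPM at LPS 16h, 434 to 496 CPM at LPS 5d and 764 to 1274 CPM in LPS + Beta-Ac lungs, and the part of these cells in the lymphocyte results was not tested. The 9 erythroid markers, which stand for blood in the tissue, summed to 609 to 1588 CPM in preterm controls, and the range of every other group overlapped this. Preterm control 209 stood apart from the other preterm controls across all genes: on the first principal component of the 6 controls it lay at 33.6, beside term controls 200 and 201 at 69.4 and 10.6 and the other preterm controls at -53.6 to -17.3. Without animals 209 and 200 the count of 12 genes given below for LPS + Beta-Ac was 10. These are bulk samples, in which more cells of a type cannot be told apart from more RNA per cell.

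With each gene weighted equally, the lymphocyte genes were highest in LPS + Beta-Ac lungs, where their mean log2 level lay 0.63 to 1.03 above the preterm mean, against -0.01 to 0.56 at LPS 16h, 0.36 to 0.61 at LPS 5d and 0.49 to 0.55 at term. Summed CPM, in which IL7R and, in preterm controls, LCK weigh most, gave another order. The 35 genes summed to 313 to 407 CPM in preterm controls, 390 to 543 CPM at LPS 16h and 355 to 454 CPM with LPS + Beta-Ac. The T cell sum with LPS + Beta-Ac (232 to 293 CPM) was not above that of the preterm controls (256 to 325 CPM). IL7R and LCK had log2 fold changes of -0.54 and -0.45 there, neither of them called, while 16 of 20 T cell genes lay above 0. In LPS + Beta-Ac lungs 12 of 35 genes (34.3%) rose over preterm controls and none fell, where 6.49% of all genes were called (4.05% higher and 2.44% lower). At LPS 16h 3 genes rose and 1 fell, which is 11.4% of the set beside 14.4% of all genes (8.25% higher and 6.11% lower). At LPS 5d 2 genes rose, or 5.71%, beside 4.83% of all genes (2.6% higher and 2.23% lower). In term controls 1 gene rose, or 2.86%, beside 2.07% (1.11% higher and 0.953% lower). The shares at LPS 16h, at LPS 5d and at term lie near those of all genes. The 4 comparisons use the same preterm controls and are therefore not independent of each other.

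LPS + Beta-Ac was also the group whose animals were set apart from the preterm controls for the most genes, while LPS 16h, second by called genes, came last by this count. Setting every animal apart is harder to reach in a larger group. LPS 16h had 4 animals, LPS 5d and LPS + Beta-Ac 3 each and term 2, so the counts do not rank groups of unlike size. With LPS + Beta-Ac all 3 animals lay above every preterm control for 20 of 35 genes and below for 1, where 14.7% and 16.1% of all genes did so. At LPS 5d the numbers were 11 above and 1 below (13.6% and 15.6% of all genes), at LPS 16h 8 above and 2 below (16.9% in each direction) and at term 11 above and none below (11.2% and 15.3%). For the NK and cytotoxic set alone, 7 of 8 genes lay above the preterm controls in every LPS 5d animal and 7 of 8 in every LPS + Beta-Ac animal.

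The T, NK and B genes differed in how far they were displaced. The median log2 fold change from preterm controls at LPS 16h was 0.11 for the T cell genes, 0.68 for the NK and cytotoxic genes and 0.45 for the B cell genes, beside -0.09 for all genes. At LPS 5d these medians were 0.40, 0.96 and 0.43, and in LPS + Beta-Ac lungs 0.58, 1.09 and 1.04, beside -0.0016 and -0.01 for all genes. At term they were 0.51 for T, 0.40 for NK and cytotoxic and 0.92 for B cell genes, beside -0.01. Several of these medians moved by more than 1.5 times when 1 animal was left out. That of the T cell genes ran from 0.03 (without preterm control 113) to 0.32 (without animal 029) at LPS 16h, from 0.20 (without 113) to 0.52 (without 092) at LPS 5d and from 0.22 (without term control 200) to 0.64 (without 092) at term. The NK and cytotoxic median at term ran from 0.26 without animal 201 to 0.68 without animal 200, and the B cell median at LPS 16h from 0.24 without animal 035 to 0.81 without animal 029. The mean over the 8 NK and cytotoxic genes lay above all preterm controls in each of the 4 LPS 16h, the 3 LPS 5d and the 3 LPS + Beta-Ac animals. For the T cell genes the LPS + Beta-Ac animals lay at 0.42 to 0.83 above the preterm mean on the log2 scale, and the preterm controls between -0.38 and 0.30.

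**Figure D1:**
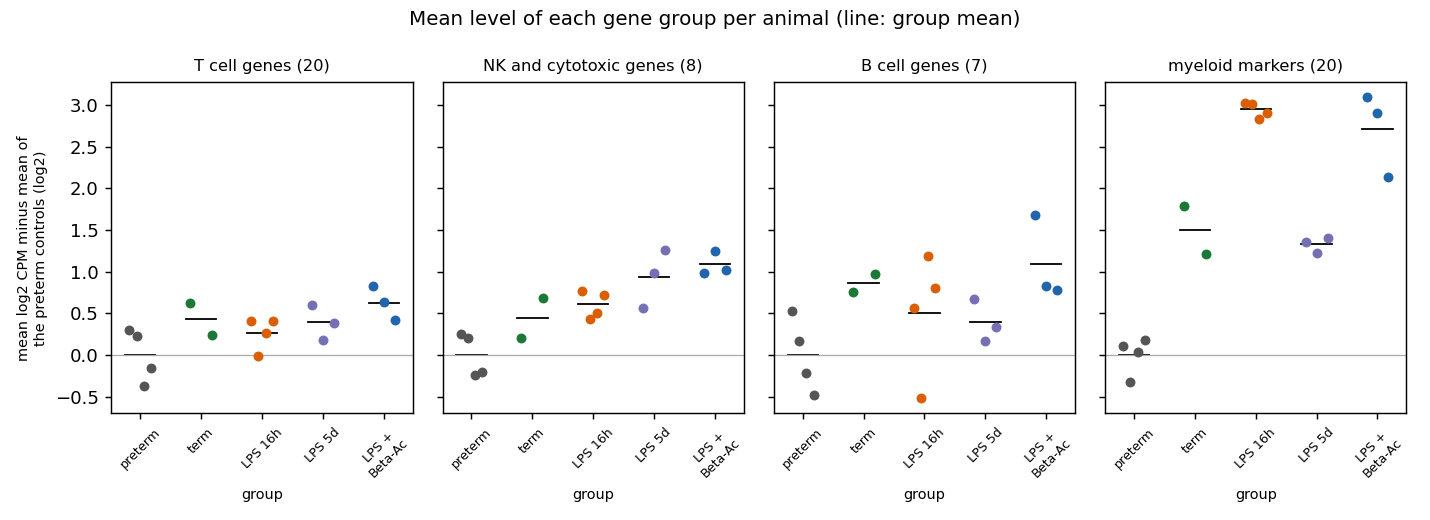
Mean log2 CPM per animal of the 20 T, 8 NK and cytotoxic and 7 B cell genes and of the 20 myeloid markers, each as a difference from the preterm mean (y axis, log2), by group (x axis); points are animals and lines are group means. The 3 LPS + Beta-Ac animals lie above all 4 preterm controls in each panel, and the myeloid markers move by the most, by 2.13 to 3.09 in LPS + Beta-Ac lungs.

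Of the 4 signalling chains of the T cell receptor, CD3D (ENSMMUG00000049268) rose at LPS 16h and in LPS + Beta-Ac lungs. It measured 1.74, 2.50, 0.887 and 1.17 CPM in the preterm controls, 3.34, 3.83, 3.73 and 4.42 CPM at LPS 16h and 4.60, 5.15 and 2.70 CPM with LPS + Beta-Ac, so that neither treated group overlapped the controls. The log2 fold changes were 1.34 ± 0.32 (SE, adjusted p = 0.0040) at 16 hours and 1.41 ± 0.35 (adjusted p = 0.0109) in LPS + Beta-Ac lungs. At LPS 5d it measured 4.83, 2.69 and 2.38 CPM, with a log2 fold change of 1.07 that missed the threshold (adjusted p = 0.0512).

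None of the other chains was called at 16 hours. CD3E had a log2 fold change of 0.20 ± 0.18 and CD3G one of -0.07 ± 0.44, with animals of LPS 16h and of the controls overlapping for both genes. CD247, the zeta chain that NK cells also use, had 0.41 ± 0.27 at 16 hours and rose in LPS + Beta-Ac lungs, where it measured 5.35, 4.75 and 3.43 CPM against 2.70, 2.87, 1.60 and 1.31 CPM in preterm controls (log2 fold change 1.11 ± 0.29, adjusted p = 0.0163). CD3G varied between animals of one group. It stood at 4.64, 1.89 and 9.18 CPM in the LPS + Beta-Ac lungs and at 5.96, 2.46 and 5.66 CPM at LPS 5d, and was not called in any comparison. Without animal 249 the CD3D and CD247 calls in LPS + Beta-Ac lungs were lost (adjusted p = 0.0566 and 0.0587), and CD247 was also lost without animal 248 (adjusted p = 0.0715) or without preterm control 209, where its log2 fold change fell short of the limit at 0.92.

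Among the adhesion and co-receptor genes, CD2, whose product binds CD58 on partner cells, was the one called. It measured 3.31, 2.87, 1.81 and 2.70 CPM in preterm controls and 6.78, 7.58 and 4.40 CPM in LPS + Beta-Ac lungs, without overlap (log2 fold change 1.20 ± 0.22, adjusted p = 0.00188). At LPS 16h and LPS 5d every animal also lay above the highest preterm control, at 3.95 to 4.84 and 3.95 to 5.01 CPM, but the log2 fold changes of 0.78 and 0.79 were under the limit of 1. CD7, an early T and NK lineage gene, was just under it as well, at 0.97 at 16 hours (adjusted p = 0.00392) and 0.99 in LPS + Beta-Ac lungs (adjusted p = 0.0126).

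CD5 and CD6, which restrain receptor signals, had log2 fold changes between 0.01 and 0.75 in the comparisons with preterm controls, and none was called. CD8A, a chain of the co-receptor of cytotoxic T cells, measured 7.05 CPM in preterm control 092 and 1.92 to 3.33 CPM in the other 3, a range that took in all 12 animals of the other groups. CD8B, its partner chain, lay between 0.291 and 1.36 CPM in 15 animals and at 5.19 CPM in term control 200. The other term control had 0.680 CPM, so the term log2 fold change of 1.66 ± 0.66 rests on 1 animal and was not called (adjusted p = 0.181).

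LCK (ENSMMUG00000040694), the kinase that starts signalling at the T cell receptor, was the 1 gene of the 35 that fell, and it did so at LPS 16h. The preterm controls measured 67.0, 112.7, 44.6 and 77.9 CPM and the LPS 16h lungs 36.0, 28.0, 18.3 and 20.1 CPM. All 4 LPS 16h animals lay below every preterm control, with a log2 fold change of -1.53 ± 0.26 (adjusted p = 0.000274). At 5 days LCK stood at 48.0, 45.6 and 70.1 CPM with LPS and at 56.5, 52.5 and 48.9 CPM with LPS + Beta-Ac, inside the preterm range, and in the term controls at 94.8 and 80.7 CPM. The preterm mean of LCK, 75.6 CPM, was far above those of CD3E (8.14 CPM), CD3D (1.57 CPM), ZAP70 (7.46 CPM) and LAT (8.50 CPM). Which cells supplied the LCK reads was not tested, so its fall cannot be read as a change of T cells alone.

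ZAP70 and LAT, the kinase and the adaptor that act after LCK, were not called at 16 hours: their log2 fold changes were -0.08 ± 0.29 and 0.02 ± 0.20. In LPS + Beta-Ac lungs all 3 animals lay above the preterm controls for both genes, at 10.7 to 17.7 CPM for ZAP70 against 6.11 to 8.89 CPM, and at 11.6 to 20.8 CPM for LAT against 6.99 to 10.9 CPM. ZAP70 came to 0.94 on the log2 scale (adjusted p = 0.0485) and LAT to 0.83 (adjusted p = 0.0173), both under the limit. ZAP70 at LPS 5d came to 0.99 (adjusted p = 0.0416), with 26.5 CPM in animal 239 and 10.2 and 11.9 CPM in the others.

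CTLA4 (ENSMMUG00000015903), an inhibitory receptor of activated and regulatory T cells, rose in all 3 LPS groups. The preterm controls had 1, 4, 3 and 7 counts, or 0.044, 0.185, 0.106 and 0.255 CPM. It measured 0.887, 1.52, 0.718 and 1.37 CPM at LPS 16h, 0.872, 1.07, and 0.665 CPM at LPS 5d and 2.07, 1.23 and 0.694 CPM with LPS + Beta-Ac. No LPS-exposed animal overlapped the preterm controls, and the 2 term controls were split, at 1.07 and 0.129 CPM.

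The log2 fold changes of CTLA4 were 2.50 ± 0.50 (adjusted p = 0.00116), 2.20 ± 0.54 (adjusted p = 0.0143) and 2.67 ± 0.54 (adjusted p = 0.00344). At counts this low their size depends on the prior count, and with 0.5 in place of 2 counts they came to 2.93, 2.61 and 3.10. Without animal 240 the LPS 5d call was lost (adjusted p = 0.0638).

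FOXP3, the factor that defines regulatory T cells, was not called in any of these groups. It measured 3.79, 1.81, 2.66 and 2.26 CPM in preterm controls, 1.68 to 2.20 CPM at LPS 16h, 2.42 to 3.09 CPM at LPS 5d and 1.93 to 3.09 CPM with LPS + Beta-Ac, and its log2 fold changes were -0.43, 0.09 and -0.04. CD28, which competes with CTLA4 for its ligands, and the costimulator ICOS lay between -0.30 and 0.32 in the same comparisons, and neither was called.

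The genes of naive T cells and of early T cell identity were not called against preterm controls. IL7R, the receptor chain for the survival cytokine IL-7, measured 182.8, 142.5, 164.5 and 186.1 CPM in preterm controls and 304.2, 201.6, 225.6 and 334.9 CPM at LPS 16h, without overlap (log2 fold change 0.63, adjusted p = 0.0418). At LPS 5d it stood at 97.4, 81.7 and 143.1 CPM and with LPS + Beta-Ac at 135.6, 112.1 and 100.5 CPM, which gave -0.69 (adjusted p = 0.0816) and -0.54 (adjusted p = 0.157) on the log2 scale. The preterm mean of IL7R, 169 CPM, was like that of LCK far above the 8.14 CPM of CD3E, and which cells supplied it was not tested. TCF7, a factor of naive and precursor T cells, had -0.67 at 16 hours (adjusted p = 0.00547), with 5.03 to 7.24 CPM below the 8.01 to 11.8 CPM of the preterm controls. BCL11B, needed for commitment to the T lineage, ranged from 0.106 to 1.39 CPM over the 16 animals and had log2 fold changes of -0.25, -0.42 and 0.22 in the 3 LPS groups.

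**Figure D2:**
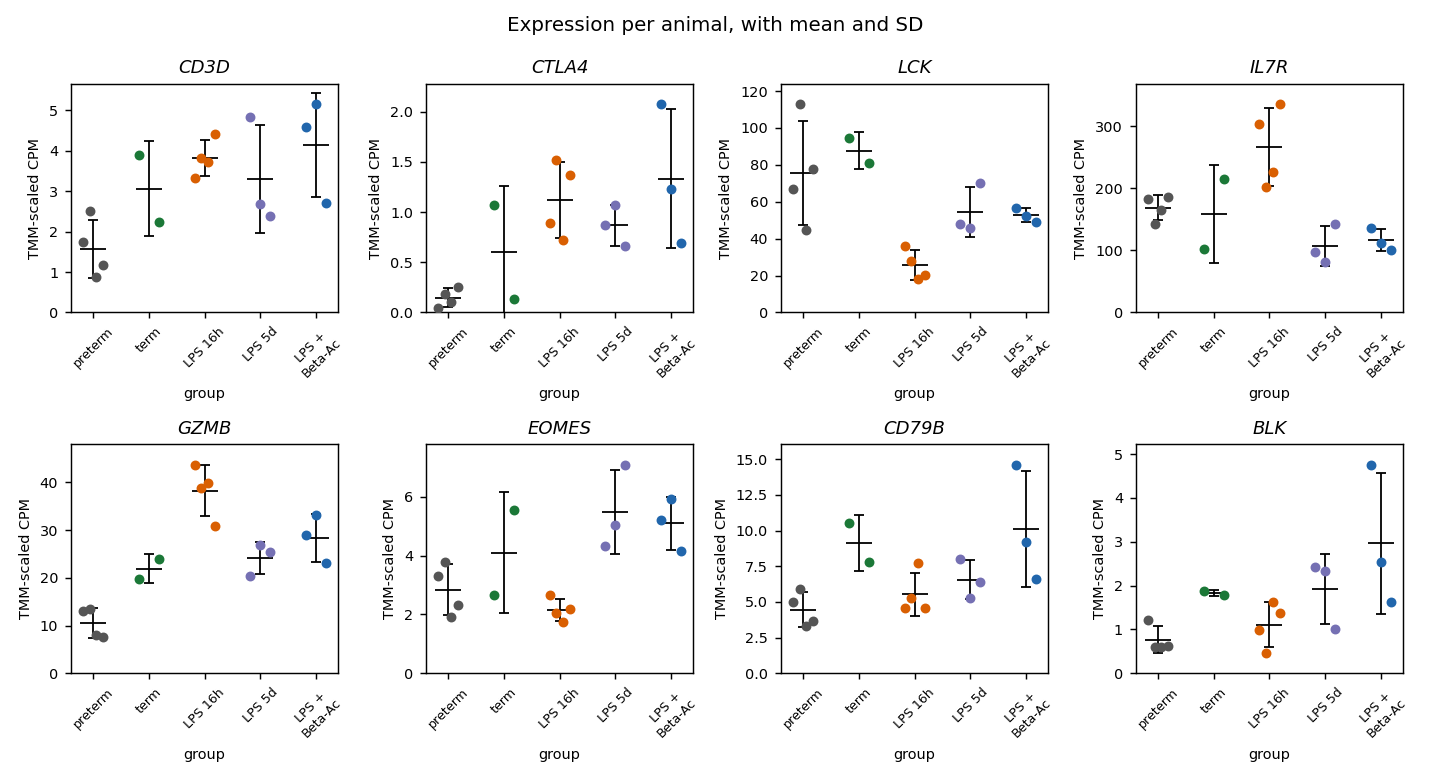
TMM-scaled CPM (y axis, linear, from 0) of 8 genes by group (x axis); points are animals, bars the mean and SD, which for CTLA4 in the 2 term controls reaches below the axis. LCK is lower in all 4 LPS 16h animals (18.3 to 36.0 CPM) than in any preterm control. In the same 4 animals CD3D, CTLA4 and GZMB lie above every preterm control. BLK and CD79B peak in LPS + Beta-Ac animal 248.

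In the NK and cytotoxic set GZMB (ENSMMUG00000014381), the granzyme that starts apoptosis in target cells, rose in all 4 groups compared with preterm controls. It measured 13.1, 13.4, 8.09 and 7.61 CPM in the preterm controls and 43.6, 38.8, 39.8 and 30.8 CPM at LPS 16h. The levels at LPS 5d were 20.5, 26.9 and 25.3 CPM, with LPS + Beta-Ac 29.0, 33.1 and 23.1 CPM, and at term 19.7 and 24.0 CPM. No animal of these groups overlapped the preterm controls.

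Its log2 fold changes were 1.89 ± 0.20 (adjusted p = 2.65e-06) at 16 hours, 1.23 ± 0.21 (adjusted p = 0.00162) at LPS 5d, 1.45 ± 0.21 (adjusted p = 0.000350) with LPS + Beta-Ac and 1.09 ± 0.24 (adjusted p = 0.0231) at term. The calls in the LPS groups held without any single animal. The term call was lost without preterm control 113 (adjusted p = 0.0630), term control 200 (adjusted p = 0.0949) or term control 201 (adjusted p = 0.140), and without preterm control 209 its log2 fold change was 0.95. Granzymes resemble each other in sequence, and how the counting shared reads between them is not stated.

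GZMA, another granzyme, and PRF1, which forms the pores through which granzymes enter, rose in LPS + Beta-Ac lungs. GZMA measured 0.914, 0.741, 0.816 and 1.09 CPM in preterm controls and 2.30, 2.07 and 3.12 CPM in LPS + Beta-Ac lungs (log2 fold change 1.41 ± 0.38, adjusted p = 0.0180). PRF1 measured 5.62, 5.19, 4.33 and 3.57 CPM and 9.31, 13.5 and 8.41 CPM (1.13 ± 0.24, adjusted p = 0.00485). The groups did not overlap for either gene. At LPS 5d they also lay above the preterm controls in every animal, at 1.42 to 2.47 CPM for GZMA and 5.96 to 10.6 CPM for PRF1, but neither the 1.15 of GZMA (adjusted p = 0.0549) nor the 0.75 of PRF1 (adjusted p = 0.0524) was called.

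GZMK, a granzyme of memory-type cytotoxic cells, measured 1.26, 1.07, 0.781 and 0.729 CPM in preterm controls and 1.74, 2.07 and 2.95 CPM at LPS 5d (log2 fold change 1.17 ± 0.39, adjusted p = 0.0566). At LPS 16h it stood at 0.852, 0.851, 0.394 and 1.40 CPM, with a log2 fold change of -0.21. NKG7, a granule membrane protein, was above the preterm controls in every LPS 16h and LPS + Beta-Ac animal, at 13.3 to 19.5 and 14.6 to 16.9 CPM against 7.29 to 11.7 CPM. The changes, 0.73 (adjusted p = 0.00532) and 0.75 (adjusted p = 0.0148) on the log2 scale, were under the limit.

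IL2RB, the receptor chain through which NK cells and activated T cells sense IL-2 and IL-15, and TBX21, the T-bet factor of cytotoxic and type 1 helper cells, rose in LPS + Beta-Ac lungs. IL2RB measured 19.4, 19.6, 14.7 and 14.2 CPM in preterm controls and 36.6, 40.3 and 28.8 CPM with LPS + Beta-Ac (log2 fold change 1.05 ± 0.26, adjusted p = 0.0116). TBX21 measured 1.05, 0.973, 0.710 and 0.947 CPM and 2.00, 3.26 and 1.54 CPM (1.19 ± 0.27, adjusted p = 0.00646). The groups were apart for both.

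EOMES, the factor paired with T-bet in NK cells, measured 3.31, 3.80, 1.92 and 2.33 CPM in preterm controls and 5.20, 5.95 and 4.16 CPM with LPS + Beta-Ac, without overlap (0.87 ± 0.29, adjusted p = 0.0518). In LPS 5d lungs EOMES reached 0.95 (adjusted p = 0.0382), IL2RB 0.98 (adjusted p = 0.0207) and TBX21 0.90 (adjusted p = 0.0335), all under the limit of 1. The 3 NK calls with LPS + Beta-Ac nearest the limit depended on animal 249: without it the log2 fold changes were 0.95 for PRF1, 0.92 for TBX21 and 0.98 for IL2RB. IL2RB was also lost without preterm control 113 or 209 (0.99 and 0.97), and GZMA without animal 255 (adjusted p = 0.0747).

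Of the 7 B cell genes 3 rose in LPS + Beta-Ac lungs, and none was called at LPS 16h, at LPS 5d or at term by limma or limma-voom. With median-of-ratios factors in place of TMM, MS4A1 was called at LPS 16h. At an unadjusted p below 0.05 the number was 1 at LPS 16h, 1 at LPS 5d and 4 at term by both tools. CD79A and CD79B carry the signal of the B cell antigen receptor. CD79A measured 5.75, 5.93, 3.80 and 3.28 CPM in preterm controls and 12.4, 8.09 and 8.29 CPM with LPS + Beta-Ac (log2 fold change 1.04 ± 0.26, adjusted p = 0.0117). CD79B measured 4.96, 5.93, 3.30 and 3.64 CPM and 14.6, 9.17 and 6.63 CPM (1.13 ± 0.28, adjusted p = 0.0121). Neither gene overlapped between the groups.

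BLK, a kinase of the same family as LCK that acts in B cells, had the largest log2 fold change of the 7 B cell genes in LPS + Beta-Ac lungs. It measured 1.22, 0.602, 0.603 and 0.619 CPM in preterm controls and 4.75, 2.54 and 1.62 CPM with LPS + Beta-Ac (1.80 ± 0.45, adjusted p = 0.0117). At LPS 5d it stood at 2.43, 2.34 and 0.998 CPM (1.22, adjusted p = 0.0816) and at term at 1.88 and 1.78 CPM (1.25, adjusted p = 0.190). Animal 248 was the highest of the 3 LPS + Beta-Ac animals for all 7 B cell genes, and without it all 3 calls were lost, at adjusted p = 0.0643 for CD79A, 0.0712 for CD79B and 0.0724 for BLK. CD79A also fell short of the fold limit without preterm control 113 or 209 (0.96 and 0.89).

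MS4A1, the CD20 antigen of mature B cells, measured 4.75 CPM in preterm control 092 and 2.22, 2.38 and 2.11 CPM in the others. It reached 11.7, 5.73 and 5.67 CPM with LPS + Beta-Ac, above every preterm control, with a log2 fold change of 1.40 ± 0.48 (adjusted p = 0.0587). At LPS 16h it stood at 7.28, 1.97, 9.04 and 9.89 CPM, so 3 animals lay above the controls and animal 029 below them (1.13, adjusted p = 0.0570). CR2, the complement receptor of B cells, PAX5, the factor that holds B cell identity, and FCRL1, an Fc receptor-like protein, had log2 fold changes of 0.71, 0.96 and 0.63 with LPS + Beta-Ac and were not called. FCRL1 belongs to a family of similar genes, so its counts are less certain.

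The B cell genes at LPS 16h turned on 1 animal. Animal 029 was the lowest of the 4 for 6 of 7 B cell genes and for 20 of all 35 genes, with 0.691 CPM of PAX5 against 1.67 to 3.34 CPM and 0.399 CPM of CR2 against 2.38 to 2.83 CPM in the other 3. Without it the number of genes called at LPS 16h went from 4 to 7, and the 3 that were added were CR2, MS4A1 and PAX5. The median log2 fold change of the B cell genes was then 0.81 in place of 0.45. Its library, at 43733380 counts, was among the deepest.

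**Figure D3:**
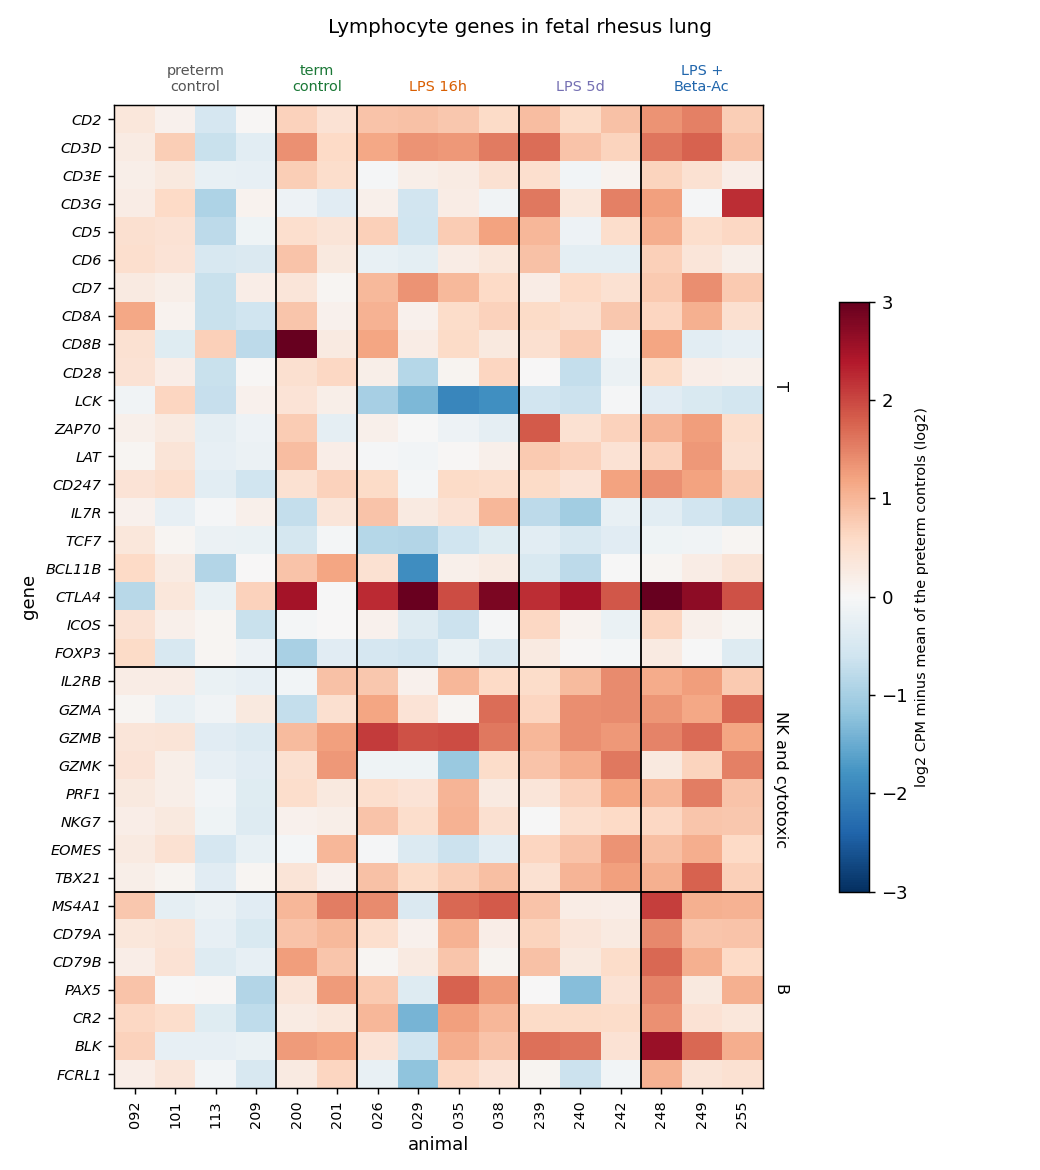
Log2 CPM of the 35 genes (rows, T above, then NK and cytotoxic, then B) in the 16 animals (columns, by group) as a difference from the preterm mean; the colour scale is cut at 3 in both directions. CTLA4 and GZMB are high in all LPS-exposed animals, LCK is low in the 4 LPS 16h animals, and animal 029 stands out by low B cell genes.

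Animals of 1 group differed in which set was high. Among preterm controls, animals 113 and 209 were each the lowest for 15 of 35 genes, and 092 and 101 were the highest for 17 and 14. LPS 5d animal 239 was the lowest of its group for all 8 NK and cytotoxic genes and the highest for 12 of 20 T cell genes and 6 of 7 B cell genes. In the same group animal 242 was the highest for 7 of 8 NK and cytotoxic genes. Animal 255 was the lowest LPS + Beta-Ac animal for 24 of 35 genes, although its CD3G and GZMA were the highest of the 3.

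**Figure D4:**
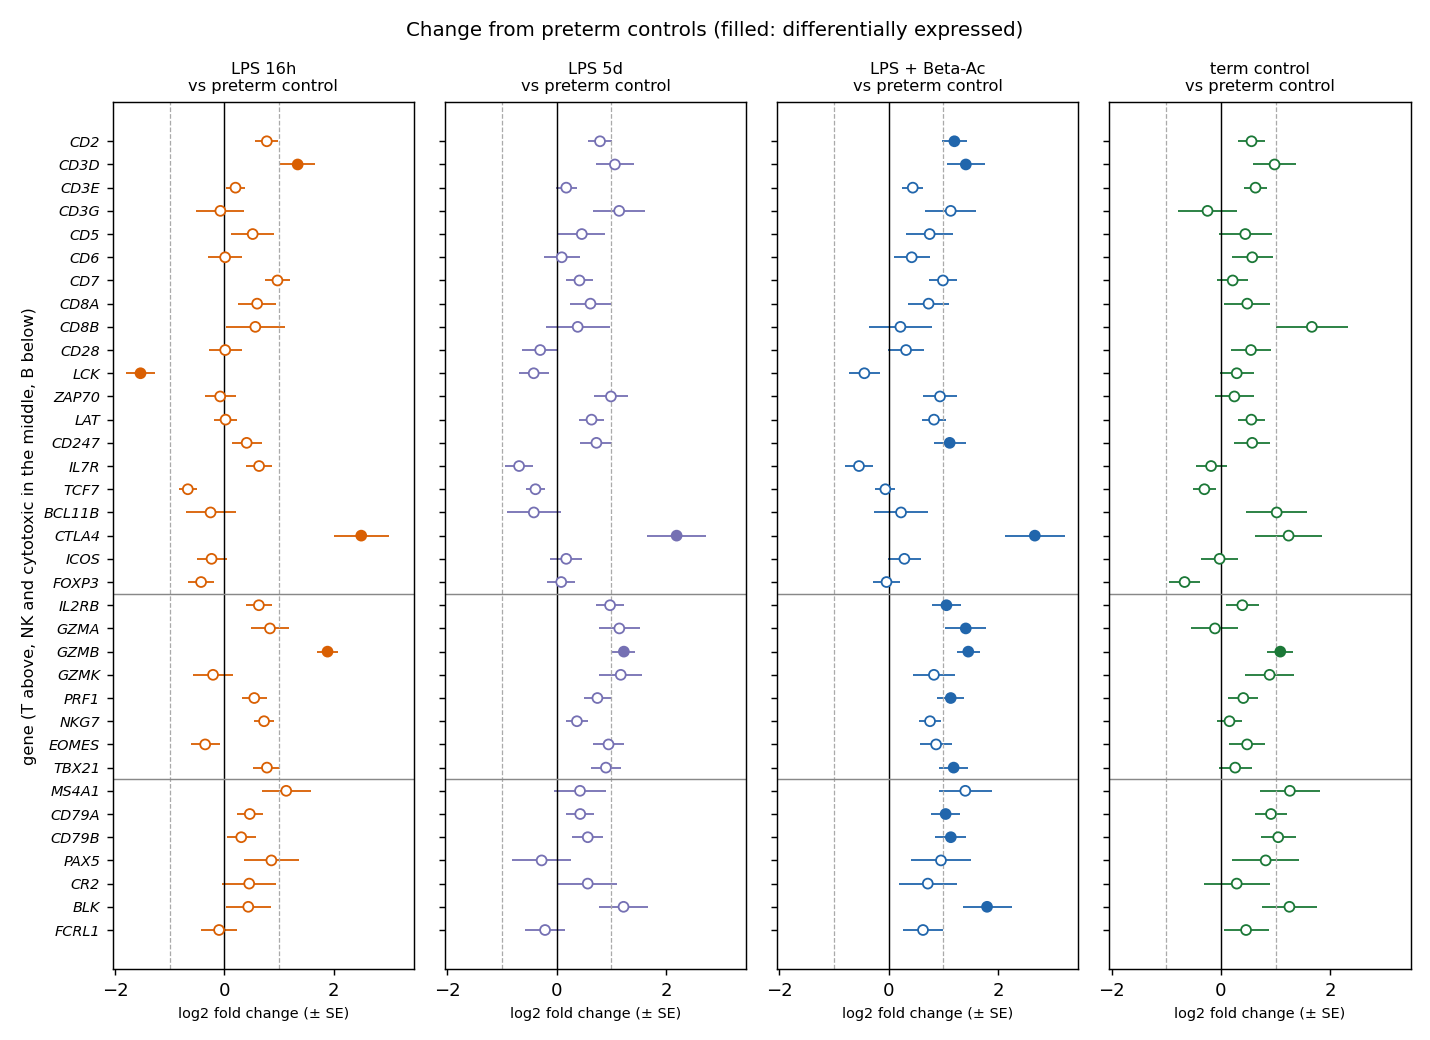
Log2 fold change from preterm controls (x axis, bars are SE) of the 35 genes (y axis) in LPS 16h, LPS 5d, LPS + Beta-Ac and term lungs; filled points were called differentially expressed and dashed lines mark a fold change of 2. In LPS + Beta-Ac lungs 12 points are filled, against 4 at LPS 16h, 2 at LPS 5d and 1 at term.

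The comparison of LPS + Beta-Ac with LPS 5d asks what the steroid added to LPS at the same interval. None of the 35 genes was called, by limma or limma-voom, where 0.0885% of all genes were called. At an unadjusted p below 0.05 there were 3 genes by limma (CD7, CD79A and FCRL1, with log2 fold changes of 0.57, 0.61 and 0.84) and 2 by limma-voom. The log2 fold change was above 0 for 28 of 35 genes and for 7 of 7 B cell genes, whose median was 0.61, beside 0.27 for T cell, 0.24 for NK and cytotoxic and -0.00044 for all genes. All 3 LPS + Beta-Ac animals lay above all 3 LPS 5d animals for 8 genes and below for none (6.32% and 5.06% of all genes). The standard errors of single genes ran from 0.19 to 0.62, and a p that misses the threshold does not show that the groups were alike. Of the 20 myeloid markers 19 had a log2 fold change above 0, with a median of 1.26, and 17 lay higher in every LPS + Beta-Ac animal. None of them was called by limma or limma-voom, with 17 and 16 at an unadjusted p below 0.05. The erythroid markers lay on the same side: 8 of 9 had a log2 fold change above 0, with a median of 1.25, and 6 of 9 lay higher in every LPS + Beta-Ac animal. None of them was called by limma or limma-voom, with 4 and 3 at an unadjusted p below 0.05, and they summed to 1209 to 1409 CPM with LPS + Beta-Ac and to 352 to 1078 CPM at LPS 5d. The part of these markers in the result was not tested.

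Between LPS 16h and LPS 5d 5 genes were called (14.3%, beside 14.6% of all genes, 7.93% higher and 6.66% lower at 16 hours). These groups lie on different sides of the split by animal number, so their differences cannot be told apart from it. Markers of other cells moved in the same comparison, with 10 of 20 myeloid markers (median log2 difference 1.38) and 5 of 9 erythroid markers (median 1.85) called higher at 16 hours, and their part in the result was not tested. IL7R was higher at 16 hours, by 1.32 ± 0.25 (adjusted p = 0.000822). Lower at 16 hours were LCK, with a log2 difference of -1.12 ± 0.28 (adjusted p = 0.00569), ZAP70 with -1.07 ± 0.31 (adjusted p = 0.0136), GZMK with -1.38 ± 0.39 (adjusted p = 0.0120) and EOMES with -1.30 ± 0.29 (adjusted p = 0.00256). EOMES measured 2.66, 2.05, 1.74 and 2.18 CPM at LPS 16h and 4.32, 5.03 and 7.08 CPM at LPS 5d, without overlap. GZMB did not meet the fold limit in this comparison (0.66, adjusted p = 0.0255) and CTLA4 gave 0.31 ± 0.54. Over the 35 genes, all LPS 16h animals lay above all LPS 5d animals for 3 and below for 7 (20.8% and 19.2% of all genes). The LCK call was lost without animal 035 or 242 (-0.98 and -0.92), the ZAP70 call without animal 239 (adjusted p = 0.0848), and the GZMK call without animal 242 (adjusted p = 0.0605).

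Of 29 other T cell genes, 10 rose and 1 fell at LPS 16h, 6 rose and 1 fell at LPS 5d, 14 rose with LPS + Beta-Ac and 2 rose at term, against preterm controls. These are 37.9%, 24.1%, 48.3% and 6.90% of the list, where 14.4%, 4.83%, 6.49% and 2.07% of all genes were called. IL2RA, the high-affinity IL-2 receptor chain of activated and regulatory T cells, rose in each LPS group, and which cells supplied its reads was not tested. It measured 0.674 to 1.57 CPM in preterm controls, 9.68 to 30.0 CPM at LPS 16h, 3.61 to 5.41 CPM at LPS 5d and 9.68 to 20.3 CPM with LPS + Beta-Ac, with log2 fold changes of 3.82, 1.88 and 3.52. TNFRSF18 and TNFRSF4, receptors of activated T cells that other cells can also make, rose by 4.83 and 2.58 at LPS 16h. The inhibitory receptor TIGIT rose by 1.47 at LPS 16h, 1.84 at LPS 5d and 1.83 with LPS + Beta-Ac. The chemokine receptor CXCR3 rose by 1.76 at LPS 5d and 2.12 with LPS + Beta-Ac, and CXCR6, a receptor of tissue-resident T cells, rose by 1.83 at LPS 5d, 1.24 with LPS + Beta-Ac and 1.49 at term. The genes that fell, named after their values were seen, were GATA3 at LPS 16h (-1.29) and LEF1 at LPS 5d (-1.09), which are both known outside lymphocytes as well.

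Of 19 other NK and cytotoxic genes, 7 rose at LPS 16h, 6 at LPS 5d, 7 with LPS + Beta-Ac and 2 at term (none at term by limma-voom), and none fell. These are 36.8%, 31.6%, 36.8% and 10.5% of the list, beside the same shares of all genes as above. SLAMF7, a receptor of NK and plasma cells and of macrophages, measured 0.522 to 0.710 CPM in preterm controls and 3.24 to 6.14, 2.27 to 4.04 and 6.05 to 7.27 CPM in the LPS 16h, LPS 5d and LPS + Beta-Ac lungs, with log2 fold changes of 2.72, 2.25 and 3.29. NCR3, an activating receptor of NK cells, rose by 2.64, 1.60 and 2.14, and by 1.27 at term. CCL5, a chemokine that cytotoxic cells release, rose by 3.08, 1.58 and 1.43, and which cells supplied its reads was not tested. IFNG, the cytokine of activated NK and T cells, was at 0 to 0.109 CPM in preterm controls and at 0.293 to 1.74 CPM at LPS 16h, where it was called; the control counts are too few for a fold change.

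Of 22 other B cell genes tested, 7 rose at LPS 16h, 2 at LPS 5d, 10 with LPS + Beta-Ac and 1 at term, and none fell. These are 31.8%, 9.09%, 45.5% and 4.55% of the list, where 14.4%, 4.83%, 6.49% and 2.07% of all genes were called. At LPS 16h the leading genes were SPIB (log2 fold change 5.31), CD40 (2.85) and CIITA (2.46), which dendritic cells, macrophages or epithelium also express, and FCRL5 (2.04). SPIB stood at 3.87 to 5.00 CPM in preterm controls, 117.6 to 236.6 CPM at LPS 16h and 6.32 to 11.5 CPM in the animals delivered after 5 days. With LPS + Beta-Ac the leading genes were FCRL5 (1.87), the IgE receptor FCER2 (1.86) and the inhibitory receptor CD72 (1.85). VPREB3, a gene of B cell precursors, was also called, at 0.193 to 0.528 CPM against 0 to 0.139 CPM in preterm controls. Its control counts are too few for a fold change. Between LPS + Beta-Ac and LPS 5d no gene of these 3 further lists was called by limma or limma-voom. At an unadjusted p below 0.05 there were 5, 2 and 6 of the T, NK and cytotoxic and B cell genes by limma, and 4, 3 and 6 by limma-voom. Between LPS 16h and LPS 5d, 5 of the further T cell genes were higher and 2 lower at 16 hours, led by TNFRSF18 (3.23), 3 NK and cytotoxic genes were higher and 1 lower, and 4 B cell genes were higher, which is 24.1%, 21.1% and 18.2% of the lists beside 14.6% of all genes.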

How the data were processed

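The values deposited by the authors are counts, whole numbers for each Ensembl gene in each animal, not normalized; the unit is recorded as other because the table's layout kept a check from reading it as counts. The authors selected poly(A) RNA, read 75 bp from both ends, assigned reads to MMUL10 with kallisto, used tximport for totals per gene and DESeq2 for testing. The sources used here give neither tool versions nor any rounding of estimated counts. Groups follow the labels. Symbols came from a table of Ensembl IDs.

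Counts were TMM-scaled (trims of 30% and 5%) and fitted as log2 CPM (prior count 2) with limma 3.58.1 (trend and robust) in R 4.3.3, with 1 mean per group over all 16 animals. Tested genes had 15 counts or more in total and 0.371 CPM (10 counts at median depth) in 2 or more animals. The limits for a call were 0.05 for the Benjamini-Hochberg adjusted p and 2 for the fold change. Tests are two-sided. The fit was tested on simulated data, with planted changes larger than most of the calls in the lymphocyte sets and none in low-count genes. That test does not show how changes near the limits or at low counts are found.

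The genes and lists were chosen with earlier results of these data known. Every gene of the 3 sets is named, and from each other list up to 4 called genes per comparison with the largest changes; some single genes are not reported here. Alternatives were median-of-ratios factors, no filter, a prior count of 0.5, only the groups compared, limma-voom and leaving out each animal. Replicates of a group are separate animals by their labels, and no pair agreed within counting error (chi-square per degree of freedom of 32.5 to 172.6), so none was counted as a repeat.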

Additional observations from a re-analysis of the deposited data

Results flagged for a closer look

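Of 70 combinations of gene and group with 4 animals, 4 held an animal set apart from the other 3, where chance gives about 1 in 20. CD7 was at 1.99 CPM in preterm control 113 and at 3.61 to 3.88 CPM in the other preterm controls. CD247 was at 1.94 CPM in LPS 16h animal 029 and at 2.91 to 3.05 CPM in the other 3. Preterm control 092 had 4.75 CPM of MS4A1 against 2.11 to 2.38 CPM, and 1.22 CPM of BLK against 0.602 to 0.619 CPM, and both are B cell genes.

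Between the times after LPS, 5 genes differed by the direct test of LPS 16h against LPS 5d: LCK by -1.12 on the log2 scale (adjusted p = 0.00569), ZAP70 by -1.07 (adjusted p = 0.0136), IL7R by 1.32 (adjusted p = 0.000822), GZMK by -1.38 (adjusted p = 0.0120) and EOMES by -1.30 (adjusted p = 0.00256), all by limma. The times cannot be told apart from the split by animal number.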

How the results depend on the processing

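No called gene changed direction under any alternative run, and the set medians kept theirs except between LPS 16h and LPS 5d, where leaving out 1 animal gave -0.19 to 0.09 for the T cell genes (-0.02 with all animals) and -0.17 to 0.48 for the B cell genes (0.03). Of 310 values of single called genes, 281 kept their call and 29 lost it. Leaving out 1 animal at a time gave 4 to 7 called genes at LPS 16h, 2 to 5 at LPS 5d, 8 to 15 with LPS + Beta-Ac, 0 to 1 at term, 0 between LPS + Beta-Ac and LPS 5d, and 3 to 7 between LPS 16h and LPS 5d. At LPS 16h the count of 4 became 6 with median-of-ratios factors, with CD7 and MS4A1 added. At LPS 5d the count of 2 became 5 with median-of-ratios factors and 5 with only the groups compared. At term the count of 1 became 0 with only the groups compared. Leaving out preterm control 209 and term control 200, chosen after seeing the data, gave 0 called genes at term with medians of 0.18 for T and 0.69 for NK and cytotoxic genes in place of 0.51 and 0.40, and 10 called genes with LPS + Beta-Ac. Then, as when 1 term control is left out, the other is assumed to vary like the other groups. No paired analysis was possible because the groups share no animal number. Genes limited by depth in the preterm controls include CTLA4, IFNG, VPREB3, PTCRA, CXCL13, CCL19 and TNFRSF18.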

Other observations

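Signals that draw lymphocytes into tissue or keep them alive were a further list of 17 genes. At LPS 16h 13 rose and none fell, at LPS 5d 7 rose, with LPS + Beta-Ac 7 rose, and at term none was called by limma or limma-voom, with 5 at an unadjusted p below 0.05 by each. These are 76.5%, 41.2%, 41.2% and 0% of the list, where 14.4%, 4.83%, 6.49% and 2.07% of all genes were called. CCL19, which draws naive T cells, was at 0.0710 to 0.218 CPM in preterm controls, 71.0 to 172.2 CPM at LPS 16h, 1.00 to 2.57 CPM at LPS 5d and 2.07 to 3.84 CPM with LPS + Beta-Ac. CXCL10, a ligand of CXCR3, was at 0.139 to 0.619 CPM, 91.4 to 431.4 CPM, 1.46 to 2.32 CPM and 0.761 to 1.62 CPM in the same groups. CXCL13, which draws B cells, had 2 counts in all preterm libraries together and measured 6.71, 2.66, 12.1 and 7.44 CPM at LPS 16h, 4.47, 0.960 and 1.57 CPM at LPS 5d and 20.05, 2.14 and 4.55 CPM with LPS + Beta-Ac. Its highest value was in animal 248, the animal with the highest B cell genes. IL7, the ligand of IL7R, rose by 3.57 ± 0.31 at LPS 16h (adjusted p = 3.97e-07) and by 1.05 ± 0.34 with LPS + Beta-Ac (adjusted p = 0.0431).

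Of 12 markers of the thymus and of developing T cells 8 were tested. None was called at LPS 16h or at term by limma or limma-voom. At an unadjusted p below 0.05 there was 1 in each by limma, and 0 and 1 by limma-voom. By limma 1 rose at LPS 5d, which limma-voom did not call, and 2 rose with LPS + Beta-Ac. These are 12.5% and 25% of the 8, where 4.83% and 6.49% of all genes were called. RAG1, part of the enzyme that rearranges antigen receptor genes, was at 0.566, 1.07, 1.81 and, in animal 209, 3.02 CPM in preterm controls. It was at 2.50 and 4.63 CPM in the untreated term controls, 0.505 to 1.17 CPM at LPS 16h, 3.41 to 3.72 CPM at LPS 5d and 3.05 to 5.32 CPM with LPS + Beta-Ac. PTCRA, the surrogate chain of the T cell receptor in thymocytes, was at 0.0926 to 0.174 CPM in preterm controls, 0.209 to 0.638 CPM at LPS 16h, 0.380 to 0.691 CPM at LPS 5d and 0.424 to 0.834 CPM with LPS + Beta-Ac. RAG1 was lower at LPS 16h than at LPS 5d, with a log2 difference of -2.16 ± 0.44 (adjusted p = 0.00134). Across treatments, RAG1 lay at 2.50 to 5.32 CPM in all animals numbered 200 or above and at 0.505 to 1.81 CPM in all numbered 113 or below. Preterm control 209 and both term controls are among the former, and all LPS 16h animals among the latter. The RAG1 differences therefore cannot be told apart from this split, whose source was not tested. For every other gene as well, LPS 16h against LPS 5d follows the split in full. LPS 5d, LPS + Beta-Ac and term against preterm controls follow it in all but animal 209.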
